A study of Homo sapiens with 15 samples.

Results

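The 42 genes described here are interferon-stimulated genes and genes of antigen presentation, taken from the 18338 genes of the deposited expression tables by their symbols, and all 42 were found. They were measured by RNA-Seq in 15 libraries made from Biosensor cells. These derive from HEK293, a line of human embryonic kidney origin. They stably express a fusion of yellow fluorescent protein with the tau repeat domain, which carries the P301S mutation. Control cells (5 libraries) were transfected with protein lysate of wildtype mouse brain. PS19 cells (5 libraries) received lysate of PS19 mouse brain, from a mouse that expresses human P301S tau, and this lysate makes the fluorescent tau collect into puncta. Thapsigargin cells (5 libraries) were treated with 0.3 µM thapsigargin, which blocks the calcium pump of the endoplasmic reticulum (ER) and provokes ER stress. All 3 groups therefore carry the tau reporter, and the host is one kidney-derived line, not a brain or immune cell. The time in thapsigargin and whether those cells also received lysate are not stated in the sources used here, so an effect of lysate transfection and one of thapsigargin cannot be told apart in the comparison with control cells. The libraries are called independent replicates without naming separate cultures, and a p-value here therefore speaks only of differences among libraries, a spread that could be technical.

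Interferons are secreted proteins that cells release when sensors such as RIG-I (encoded by DDX58) and MDA5 (encoded by IFIH1) meet viral RNA. Type I and type III interferons act through the kinases JAK1 and TYK2 and assemble a complex that holds STAT2 and IRF9 and binds a promoter sequence called the interferon-stimulated response element (ISRE). The genes it turns on block virus entry, RNA translation and particle release, and interferons also raise the class I major histocompatibility complex (HLA-B and HLA-C with B2M) and the TAP1 transporter that supplies it with peptides.

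The promoter sequences of several of these genes are shown because the same element stands in genes that moved in opposite directions with thapsigargin. Among those shown, ISG15 rose, and B2M, TAP1, HERC5, IFIT1 and SAMD9 fell (TAP1 not under quantile normalization). The element also stands in ISG20 and MX1, which rose, and in TRIM21, IFIH1, DTX3L, OAS3 and BST2, which fell. The calls of DTX3L, OAS3 and BST2 did not hold under every setting. Of all 11753 genes tested, 26.0% rose and 43.4% fell. Without a filter on low values the shares were 19.3% and 32.2% of 17881 genes. The search covered the RefSeq promoters of build GRCh38.p14, from 250 bases before to 50 bases after each start, on both strands, with the ISRE searched as a pair of GAAA sites with any 2 bases between them. Promoters were matched for 33 of the 42 genes, all but IFIT2, IFITM2, OAS2, OASL, MX2, IRF3, IRF7, DHX58 and USP18. The stretches below run 5′ to 3′ along the gene and lie before the start, and their capitals mark the ISRE matches in either direction, run together where 2 matches overlap.
ISG15, chr1:1013369-1013414 (+ strand): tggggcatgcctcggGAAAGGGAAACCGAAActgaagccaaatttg
B2M, chr15:44711358-44711403 (+ strand): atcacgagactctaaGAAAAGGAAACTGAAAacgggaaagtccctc
TAP1, chr6:32853808-32853853 (- strand): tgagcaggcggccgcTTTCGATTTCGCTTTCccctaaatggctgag
HERC5, chr4:88456979-88457018 (+ strand): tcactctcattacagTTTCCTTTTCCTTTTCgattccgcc
IFIT1, chr10:89392492-89392544 (+ strand): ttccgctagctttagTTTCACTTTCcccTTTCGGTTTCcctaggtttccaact
SAMD9, chr7:93118091-93118130 (- strand): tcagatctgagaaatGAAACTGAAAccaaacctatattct

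An ISRE match was present in 21 of the 33 promoters (63.6%), compared with 996 of 27305 promoters of all genes (3.65%) and 239 of 9667 promoters of the genes that were tested (2.47%). Many of these genes are known for their response to interferon, so this share describes how they were chosen. It was 56.2% (9 of 16) among those whose mean reached 1 FPKM and 70.6% (12 of 17) among those with a lower mean. FPKM, a fragment number divided by transcript length and by how many fragments of that library were mapped, is the unit of all levels here. The gamma interferon-activated site, searched as TTCNNNGAA, matched in 7 of the 33 promoters (21.2%) and in 7.88% of all promoters, and in BST2, IFI27 and IFITM1 such a match overlapped an ISRE match. The ER stress response element, searched as CCAAT and CCACG with any 9 bases between them, matched in 0 of the 33 promoters and in 0.0806% of all promoters. The ISRE pattern as searched, with exactly 2 bases between the sites, had no match in the windows of IRF9, DDX58, TRIM25, HLA-B or HLA-C. Other forms of the element were not searched, so these genes cannot be said to lack it. Among windows without a match, those of DDX58, TRIM25, OAS1, RSAD2, XAF1 and IFI35 hold 2 such sites with 1 base between them, which the search passed over. A match is a description of the window and not of a site in use.

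Most of the 42 genes were low in Biosensor cells. Their mean over the 15 libraries was at least 1 FPKM in 19 genes and below 1 FPKM in 23 (54.76%), against 35.91% of all 18338 genes. The lowest were OAS1, OAS2, OASL, MX2, RSAD2, IFI44 and IFIT2, which stood below 0.1 FPKM in every library, and OAS1 was listed at 0 in all 15. OAS1 and OAS2 make a messenger in response to double-stranded RNA, MX2 and IFIT2 restrict viruses, and RSAD2 encodes viperin. OAS3, DHX58, IFI44L, IFIT3, BST2, SAMD9, DTX3L, IFIH1 and PARP9 were also below 1 FPKM in every library, between 0.02 FPKM (the lowest value of DHX58) and 0.98 FPKM (the highest value of PARP9). IFI27, IFI35, ISG20, MX1, IRF7, IFIT1 and XAF1 had means below 1 FPKM and reached 1 FPKM in at least 1 library.

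The genes of antigen presentation led the levels. HLA-C was highest, at 181.3 ± 15.52 FPKM in control cells, 177.6 ± 9.39 in PS19 cells and 178.8 ± 13.57 in thapsigargin cells (mean ± SD, n = 5 in each group). B2M followed at 116.3 ± 3.011, 115.0 ± 5.236 and 74.16 ± 16.27 FPKM in the same order, and HLA-B at 74.58 ± 1.989, 73.65 ± 1.656 and 59.57 ± 12.4 FPKM. IFITM2, which restricts virus entry, and IRF3, the transcription factor activated by RNA and DNA sensors, came next with means over all libraries of 54.61 and 51.67 FPKM, and in control cells their ranges overlapped. USP18, which removes ISG15 from proteins, had a mean of 17.43 FPKM. IFITM1 (11.35), IFI6 (10.59), IFITM3 (10.39) and TRIM25 (9.139 FPKM) lay close together, with overlapping ranges in control cells. TAP1 (6.908), TRIM21 (6.311), STAT2 (5.955), ISG15 (5.723), IRF9 (4.623), HERC5 (4.542), IRF1 (3.574), IFIT5 (3.282) and DDX58 (1.299 FPKM) were lower. The alleles of HLA-B and HLA-C, the IFITM genes with each other, and USP18 with a near-identical copy share sequence that the counting could split, so their single levels are uncertain.

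**Figure D1:**
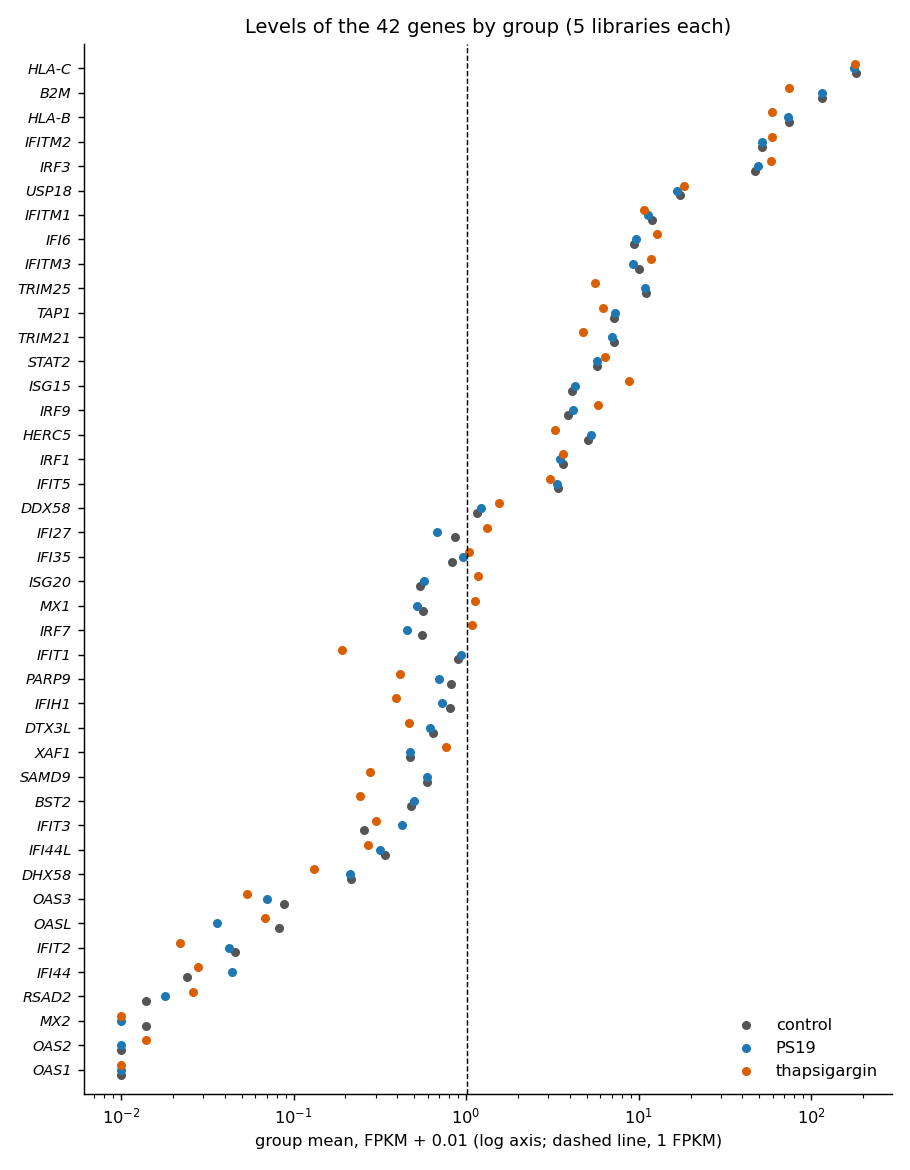
Mean level of each of the 42 genes in control, PS19 and thapsigargin libraries (5 each), in FPKM with 0.01 added so that values of 0 can be drawn on the log axis. The dashed line marks 1 FPKM: HLA-C, B2M and HLA-B lead, and OAS1 stands at 0 in every group.

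The labels could be checked on the treatment and the cell type. HSPA5, the ER chaperone BiP, was 122.2 to 163.08 FPKM in control libraries and 722.11 to 1186.91 in thapsigargin libraries, and DDIT3, the stress factor CHOP, rose from 7.56 to 14.6 FPKM to 120.42 to 164.68 FPKM. Summed levels of 6 genes that HEK cells express were 553.7 to 676.3 FPKM in control, 588.7 to 628.0 in PS19 and 586.5 to 747.0 in thapsigargin libraries. The sum joins opposite changes with thapsigargin against control: KRT18, NEFM and KRT8 rose (log2 fold changes 1.22, 0.73 and 0.50), NEFL fell (-0.56), and VIM and PAX2 did not pass. Of 8 markers of microglia and other leukocytes, cells in which interferon responses are prominent, 7 had means below 1 FPKM, and their sums were 1.71 to 2.29, 1.52 to 1.75 and 0.98 to 1.73 FPKM in the same order. The leukocyte antigen PTPRC did not exceed 0.06 FPKM in any library. Markers of other brain cells were not all low: over the 15 libraries, sums were 12.53 to 15.97 FPKM for 4 astrocyte markers and 9.21 to 12.4 FPKM for 5 neuron markers. Of these, 3 of the 4 astrocyte markers and 3 of the 5 neuron markers had means below 1 FPKM. Sums for 4 oligodendrocyte markers did not exceed 1.26 FPKM, and those for endothelium did not exceed 0.04 FPKM. FPKM summed to 506146 to 552511 in control, 523601 to 547043 in PS19 and 551499 to 637687 in thapsigargin libraries, and 15744 to 15932 genes were above 0. The values hold neither counts nor depths, and a counting error cannot be derived from them.

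The first comparison asked whether lysate that seeds tau aggregation changed these genes. None of the 19 genes whose mean reached 1 FPKM passed the test between PS19 and control cells (limma on log2(FPKM + 0.5) over 11753 genes, adjusted p under 0.1), and the groups overlapped in all 19. Of all 11753 genes, 5 passed (0.0425%), 2 higher (0.0170%) and 3 lower (0.0255%), and the groups did not overlap in 1.01%. At an unadjusted p under 0.05 there were 0 of the 19 genes, and 295 higher and 411 lower of all genes. The estimates ran from IFITM3, at -0.12 (SE 0.082, adjusted p = 0.8638), to IRF9, at 0.078 (SE 0.078, adjusted p = 0.8768). Their median was -0.0084, beside -0.015 over all genes. The 95% intervals of the 19 log2 fold changes lay between -0.29 (the lower bound of IFITM3) and 0.34 (the upper bound of IFI6, a mitochondrial protein that delays apoptosis). For B2M the interval was -0.12 to 0.082 and for ISG15, the ubiquitin-like protein that is attached to other proteins after interferon, it was -0.23 to 0.33.

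Among the 22 lower genes that could be fitted with no filter on low values (17881 genes, of which 0.0168% passed), 0 passed between PS19 and control cells. IFIT3 and OASL had an unadjusted p under 0.05 there, as did 472 higher and 693 lower of all 17881 genes, so 2 of 22 is near this background. IFIT3, a partner of IFIT1 in RNA binding, was 0.28, 0.23, 0.27, 0.13 and 0.32 FPKM in control libraries 1 to 5 and 0.39, 0.33, 0.4, 0.48 and 0.47 FPKM in PS19 libraries 1 to 5. The groups did not overlap, and the log2 fold change was 0.30 (SE 0.073, unadjusted p = 0.002569, adjusted p = 0.4938). Groups without overlap made up 1.01% of the 11753 genes tested, and this share was not computed for lower genes. Thapsigargin libraries spanned both groups, from 0.15 to 0.43 FPKM. IFIT3 is named because of this gap and was chosen after its values were seen.

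**Figure D2:**
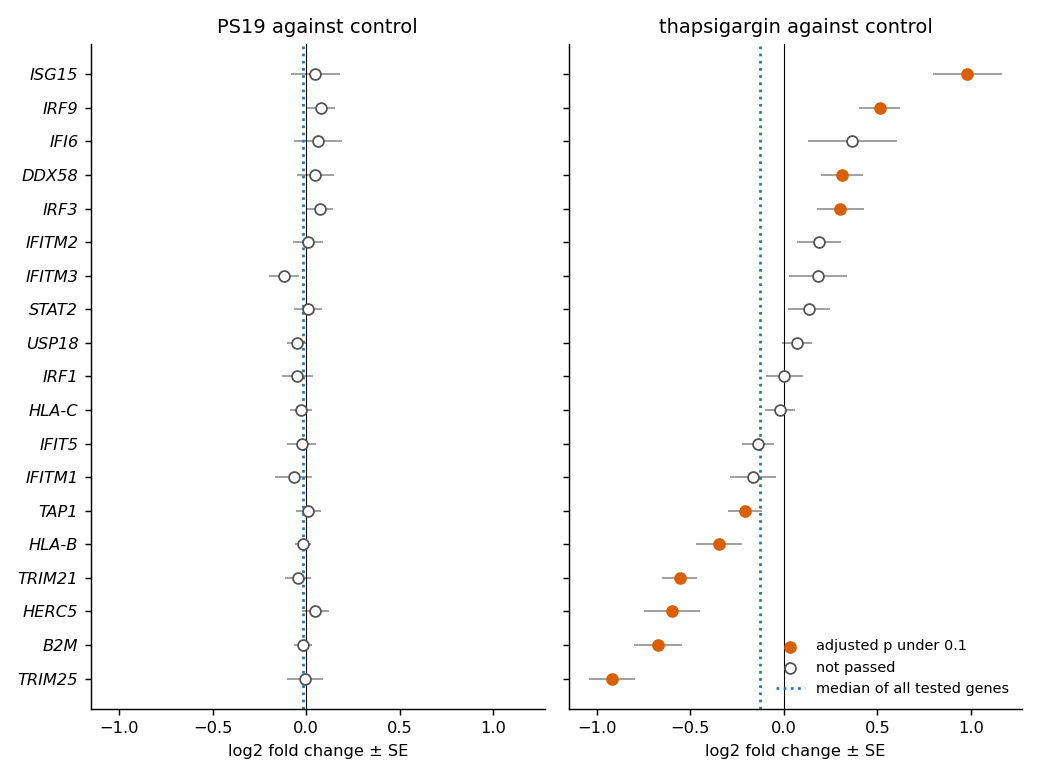
Log2 fold change ± SE (limma on log2(FPKM + 0.5), 5 libraries a group) of the 19 tested genes in PS19 cells (left) and thapsigargin cells (right) against control cells; filled points have an adjusted p under 0.1 and the dotted line is the median of all 11753 genes. The left estimates lie between -0.12 and 0.078, and the right ones run from -0.92 (TRIM25) to 0.98 (ISG15).

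The second comparison asked how the same genes differed between thapsigargin and control cells. Of the 19, 4 rose (ISG15, IRF9, DDX58 and IRF3), 6 fell (TRIM25, B2M, HERC5, TRIM21, HLA-B and TAP1) and 9 did not pass. Over all 11753 genes 69.4% passed, 26.0% higher and 43.4% lower, so the share among the 19 was not above this background. The median log2 fold change of the 19 was 0.0027, and that of all genes was -0.13. In 6 of the 19 the groups did not overlap, all of them among the changed genes, beside 40.0% of all genes tested. In bulk libraries, fewer cells with a transcript and less of it per cell cannot be told apart.

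ISG15 and the enzymes that attach or remove it, or that modify proteins with ubiquitin, moved in both directions. ISG15 (gene ID 9636) was 4.41, 5.05, 4.53, 3.2 and 3.37 FPKM in control libraries 1 to 5, 3.23, 4.32, 4.48, 3.72 and 5.64 in PS19 libraries 1 to 5 and 9.74, 11.58, 5.57, 10.1 and 6.91 in thapsigargin libraries 1 to 5. Thapsigargin libraries 3 and 5 were the lowest of their group, and all 5 exceeded every control library. The log2 fold change against control was 0.98 (SE 0.18, adjusted p = 0.0007693 by limma), the largest rise among the 19.

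HERC5 (gene ID 51191), the ligase that couples ISG15 to newly made proteins, went the other way. Its levels were 4.51, 4.55, 5.6, 5.32 and 5.48 FPKM in control, 5.32, 4.89, 5.51, 5.38 and 5.24 in PS19 and 2.97, 2.63, 4.31, 2.31 and 4.11 in thapsigargin libraries 1 to 5. Every thapsigargin library was below every control library, libraries 3 and 5 by the least, with a log2 fold change of -0.60 (SE 0.15, adjusted p = 0.004136). USP18, the protease that removes ISG15 and dampens the interferon receptor, did not pass. It was 16.58 to 18.66 FPKM in control and 15.85 to 20.47 in thapsigargin libraries, a log2 difference of 0.072 with a 95% interval of -0.10 to 0.24, and it passed as higher with median-ratio scaling (0.20, adjusted p = 0.03304).

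TRIM25 (gene ID 7706), a ubiquitin ligase that activates RIG-I, showed the largest fall among the 19. It was 9.14, 9.4, 11.04, 12.21 and 13.15 FPKM in control, 9.83, 9.67, 12.21, 11.39 and 11.19 in PS19 and 5.41, 4.81, 6.48, 4.77 and 6.39 in thapsigargin libraries 1 to 5. No thapsigargin library reached the lowest control library, and the log2 fold change was -0.92 (SE 0.12, adjusted p = 8.29e-05). TRIM21 (gene ID 6737) encodes a ligase that binds antibody on viruses inside the cell. Its levels were 7.89, 6.52, 7.28, 6.9 and 7.42 FPKM in control, 6.95, 7.63, 6.09, 7.23 and 7.01 in PS19 and 4.64, 3.89, 4.87, 5.56 and 4.79 in thapsigargin libraries 1 to 5. The groups were again apart, with a log2 fold change of -0.56 (SE 0.096, adjusted p = 0.0004403).

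Of the transcription factors, 2 of 4 tested rose, beside 26.0% of all genes, and none fell, beside 43.4%. IRF9 (gene ID 10379), the DNA-binding subunit of the complex with STAT2, was 4.2, 4.41, 3.35, 3.77 and 3.81 FPKM in control, 4.6, 4.21, 4.07, 3.92 and 3.92 in PS19 and 6.39, 6.97, 5.25, 5.68 and 4.79 in thapsigargin libraries 1 to 5. Thapsigargin libraries were all above both other groups, and the log2 fold change against control was 0.51 (SE 0.11, adjusted p = 0.001705). IRF3 (gene ID 3661) was 54.23, 51.49, 43.77, 40.8 and 45.05 FPKM in control, 50.96, 47.69, 45.41, 50.43 and 52.18 in PS19 and 66.26, 67.25, 42.3, 57.42 and 59.74 in thapsigargin libraries 1 to 5. Thapsigargin library 3 fell inside the control range and the other 4 lay above it. The log2 fold change was 0.30 (SE 0.13, adjusted p = 0.05133), and it did not pass in the fits without control library 3 (adjusted p = 0.1051), control library 4 (0.124), thapsigargin library 1 (0.1233) or thapsigargin library 2 (0.1031).

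STAT2, the partner of IRF9, was 5.04, 6.14, 5.15, 5.9 and 6.45 FPKM in control, 5.35, 5.79, 6.04, 5.67 and 5.91 in PS19 and 7.4, 4.99, 6.62, 5.94 and 6.94 in thapsigargin libraries 1 to 5. The groups overlapped, with thapsigargin libraries both below and above the control range, and the log2 difference was 0.14 (SE 0.11, adjusted p = 0.3024). STAT2 passed as higher without thapsigargin library 2, with median-ratio scaling and with quantile normalization. IRF1, which is induced mainly by interferon gamma, was 3.12 to 4.36 FPKM in control and 3.34 to 4.16 FPKM in thapsigargin libraries, a log2 difference of 0.0027 with a 95% interval of -0.21 to 0.21, and it passed as higher under quantile normalization (0.27, adjusted p = 0.05318).

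Among the RNA sensors only DDX58 (gene ID 23586) was above the limit of 1 FPKM. It was 0.97, 1.32, 1, 1.17 and 1.26 FPKM in control, 1.11, 1.44, 1.01, 1.38 and 1.08 in PS19 and 1.52, 1.35, 2.05, 1.58 and 1.25 in thapsigargin libraries 1 to 5. Thapsigargin library 5, the lowest of its group, fell inside the control range and the other 4 lay above it, and the log2 fold change was 0.31 (SE 0.11, adjusted p = 0.03097). The call was lost after rescaling to TPM (0.19, adjusted p = 0.2014).

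Of the 4 class I antigen presentation genes 3 fell (TAP1 not under quantile normalization), beside 43.4% of all genes, and HLA-C did not pass. B2M (gene ID 567), the light chain of every class I molecule, was 115.52, 113.16, 120.91, 117.52 and 114.55 FPKM in control, 119.2, 113.66, 110.67, 109.78 and 121.65 in PS19 and 69.3, 52.52, 94.37, 68.96 and 85.64 in thapsigargin libraries 1 to 5. All thapsigargin libraries were below all others, library 2 by the most and libraries 3 and 5 by the least. The log2 fold change was -0.67 (SE 0.13, adjusted p = 0.0008714).

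HLA-B (gene ID 3106) was 74.62, 76.2, 76.73, 73.52 and 71.85 FPKM in control, 72.38, 73.32, 75.64, 71.84 and 75.07 in PS19 and 59.83, 44.93, 70.09, 49.61 and 73.39 in thapsigargin libraries 1 to 5. Thapsigargin library 5 lay within the control range and the other 4 below it. The log2 fold change was -0.35 (SE 0.12, adjusted p = 0.02627), and the call was lost with median-ratio scaling (-0.21, adjusted p = 0.115). TAP1 (gene ID 6890) was 7.26, 7.7, 6.68, 7.85 and 6.65 FPKM in control, 7.83, 7.05, 6.9, 7.49 and 7.14 in PS19 and 6.72, 5.54, 5.71, 5.98 and 7.12 in thapsigargin libraries 1 to 5. The groups overlapped, and the log2 fold change of -0.21 (SE 0.091, adjusted p = 0.06637) turned to 0.036 (adjusted p = 0.76) under quantile normalization and was -0.081 (adjusted p = 0.4433) with median-ratio scaling. It also did not pass when any one of control libraries 1, 2 or 4 or thapsigargin libraries 2, 3 or 4 was left out (adjusted p = 0.1041 to 0.1485).

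HLA-C, the most abundant of the 42, stayed within the spread of the libraries. It was 207.06, 181.68, 177.88, 174.04 and 165.97 FPKM in control, 180.64, 190, 163.9, 176.23 and 177.23 in PS19 and 186.36, 156.91, 178.92, 179.12 and 192.93 in thapsigargin libraries 1 to 5. The groups overlapped, and the log2 difference between thapsigargin and control was -0.019 with a 95% interval of -0.20 to 0.16 (adjusted p = 0.8475). HLA-C passed as lower after rescaling to TPM (-0.18, adjusted p = 0.07799) and after quantile normalization (-0.22, adjusted p = 0.02759).

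**Figure D3:**
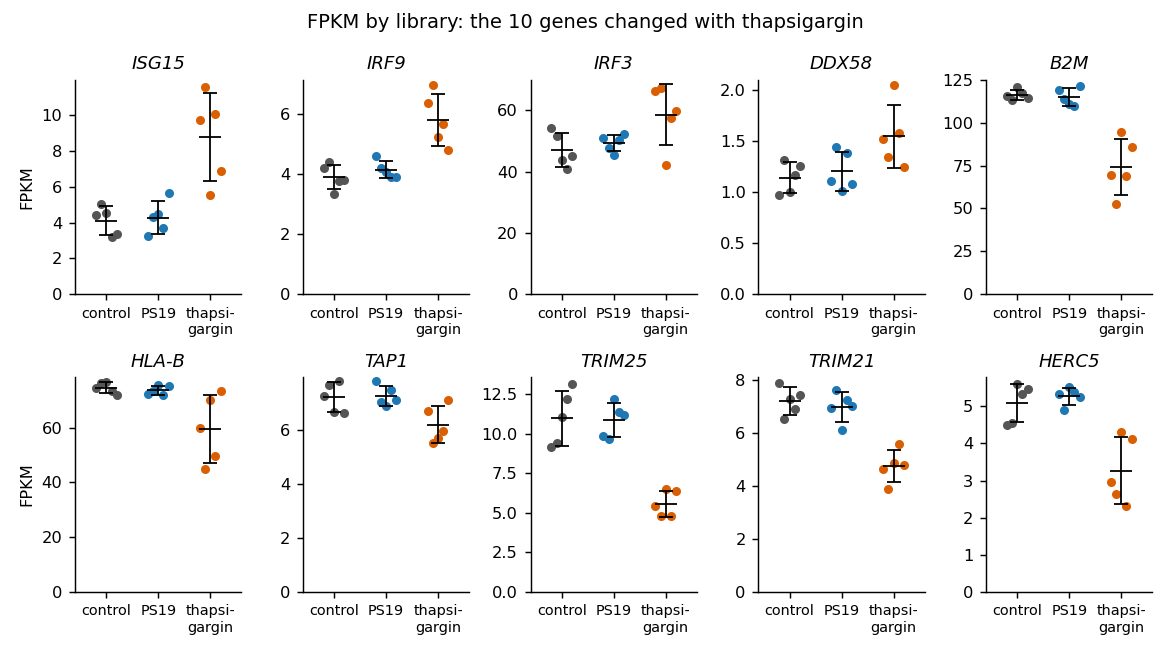
FPKM of the 10 genes that changed with thapsigargin, 1 point for each library, with the mean and SD of each group of 5 as bars. Control and PS19 points lie together in every panel; thapsigargin points are apart from control for ISG15, IRF9, B2M, TRIM25, TRIM21 and HERC5, and overlap with it for IRF3, DDX58, HLA-B and TAP1 (for TAP1 the estimate under quantile normalization was 0.036, adjusted p = 0.76).

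The IFITM proteins, which restrict entry of viruses, and IFIT5 and IFI6 did not pass with the values as deposited. IFITM2 was 64, 51.55, 46.75, 50.45 and 47.43 FPKM in control, 54.79, 58.52, 46.37, 51.81 and 49.62 in PS19 and 61.9, 68.81, 49.09, 68.14 and 49.87 in thapsigargin libraries 1 to 5. The groups overlapped, with control library 1 as high as the thapsigargin libraries, and the log2 difference was 0.19 (SE 0.12, adjusted p = 0.1859). Without thapsigargin library 3 or 5, or without control library 1, IFITM2 passed as higher, as it did with median-ratio scaling (0.32, adjusted p = 0.05575) and with the replicate number as a block (adjusted p = 0.08057). IFITM1 and IFITM3 ranged from 8.78 to 14.08 and from 7.98 to 15.68 FPKM over all libraries, with adjusted p values of 0.2593 and 0.3178.

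IFIT5, which binds RNA with a free phosphate end, was 3.44, 3.73, 2.99, 3.35 and 3.6 FPKM in control, 3.58, 3.64, 3.38, 2.97 and 3.22 in PS19 and 2.86, 2.85, 3.44, 2.99 and 3.19 in thapsigargin libraries 1 to 5. The groups overlapped (log2 difference -0.14, SE 0.087, adjusted p = 0.1834), but IFIT5 and IFITM1 passed as lower after rescaling to TPM (adjusted p = 0.03431 and 0.0172). IFI6 was 9.12, 12.44, 10.11, 8.25 and 6.82 FPKM in control, 9.02, 11.06, 9.2, 7.77 and 11.41 in PS19 and 10.08, 18.16, 6.62, 17.05 and 11.68 in thapsigargin libraries 1 to 5. Thapsigargin libraries 2 and 4 stood above all others and library 3 below them, and the difference did not pass (log2 difference 0.37, SE 0.24, adjusted p = 0.1948). Without library 3 IFI6 passed as higher (0.57, adjusted p = 0.01559), as did IFITM3 (0.30, adjusted p = 0.05898), and IFIT5 passed as lower (-0.17, adjusted p = 0.09848). IFITM1 passed as lower without thapsigargin library 2 (-0.25, adjusted p = 0.0697). IFI6 also passed under quantile normalization (0.51, adjusted p = 0.09977) and with the block (adjusted p = 0.08204).

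The 22 genes below 1 FPKM that could be fitted were compared with thapsigargin over 17881 genes without a filter, of which 51.5% passed, 19.3% higher and 32.2% lower. There 3 rose (ISG20, MX1 and IRF7) and 8 fell (IFIT1, PARP9, SAMD9, IFIH1, DTX3L, OAS3, BST2 and DHX58). The scale of log2(FPKM + 0.5) understates changes at such levels. ISG20, MX1, IRF7, IFIT1, PARP9, SAMD9 and IFIH1 passed in the same direction with each of the 3 other scalings and with each library left out. DTX3L did not pass with quantile normalization (adjusted p = 0.1532), and OAS3, BST2 and DHX58 each lost their call when any one of several libraries was left out (adjusted p up to 0.1322, 0.1426 and 0.1739). These 3 also did not pass with quantile normalization (0.1064, 0.1005 and 0.1008), nor BST2 and DHX58 with median-ratio scaling (0.1037 and 0.1609). XAF1 and IFI35 passed as higher with quantile normalization (0.07813 and 0.06934) and without thapsigargin library 3 (0.04402 and 0.09901), and XAF1 with median-ratio scaling (0.09622). Without 1 library, RSAD2 passed as higher and IFIT2 as lower.

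IFIT1, which blocks translation of RNA with a foreign cap, fell most among these low genes. It was 0.77, 0.93, 1.03, 0.76 and 0.97 FPKM in control, 0.99, 0.81, 0.85, 0.83 and 1.12 in PS19 and 0.14, 0.17, 0.26, 0.16 and 0.17 in thapsigargin libraries 1 to 5. No thapsigargin library approached the others, and the log2 fold change was -1.03 (SE 0.068, adjusted p = 7.851e-06). SAMD9, a protein that restricts poxviruses, was 0.61, 0.43, 0.69, 0.62 and 0.56 FPKM in control and 0.28, 0.21, 0.31, 0.25 and 0.28 in thapsigargin libraries 1 to 5. The groups did not overlap (log2 fold change -0.49, SE 0.065, adjusted p = 0.0003773). Such gaps were seen in 40.0% of the 11753 genes tested, and their share among genes below 1 FPKM was not computed.

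IFIH1, the sensor of long double-stranded RNA, was 0.78, 0.74, 0.77, 0.9 and 0.78 FPKM in control and 0.4, 0.23, 0.55, 0.32 and 0.41 in thapsigargin libraries 1 to 5 (log2 fold change -0.56, SE 0.087, adjusted p = 0.0009266). PARP9, which forms a complex with the ubiquitin ligase DTX3L, was 0.79, 0.77, 0.79, 0.86 and 0.82 FPKM in control and 0.39, 0.3, 0.43, 0.44 and 0.45 in thapsigargin libraries 1 to 5 (log2 fold change -0.54, SE 0.052, adjusted p = 6.747e-05). In both genes every thapsigargin library lay below every control library, beside groups without overlap in 40.0% of the 11753 genes tested. DTX3L itself fell by 0.26 on the log2 scale (SE 0.082, adjusted p = 0.02929), with overlapping groups. DDX58 and IFIH1 encode sensors of one family, and their estimates against control had opposite signs.

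The rises among the low genes were carried unevenly by the libraries. MX1, a dynamin-like protein that traps viral nucleocapsids, was 0.72, 0.67, 0.44, 0.37 and 0.56 FPKM in control and 1.35, 1.77, 0.65, 0.97 and 0.85 in thapsigargin libraries 1 to 5 (log2 fold change 0.59, SE 0.18, adjusted p = 0.02398). ISG20, an RNA exonuclease, was 0.76, 0.48, 0.64, 0.34 and 0.43 FPKM in control and 1.17, 1.86, 0.76, 0.99 and 1.06 in thapsigargin libraries 1 to 5 (log2 fold change 0.68, SE 0.17, adjusted p = 0.009498). In both genes thapsigargin library 3 was the lowest of its group and fell to the level of a control library. IRF7, the factor that amplifies interferon production, was 0.6, 0.46, 0.48, 0.82 and 0.37 FPKM in control and 1.48, 1.44, 0.54, 0.85 and 1.05 in thapsigargin libraries 1 to 5 (log2 fold change 0.56, SE 0.19, adjusted p = 0.03267). IFI27 ranged from 0.54 to 1.56 FPKM in control and from 0.31 to 2.57 FPKM in thapsigargin libraries and did not pass (adjusted p = 0.4701).

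**Figure D4:**
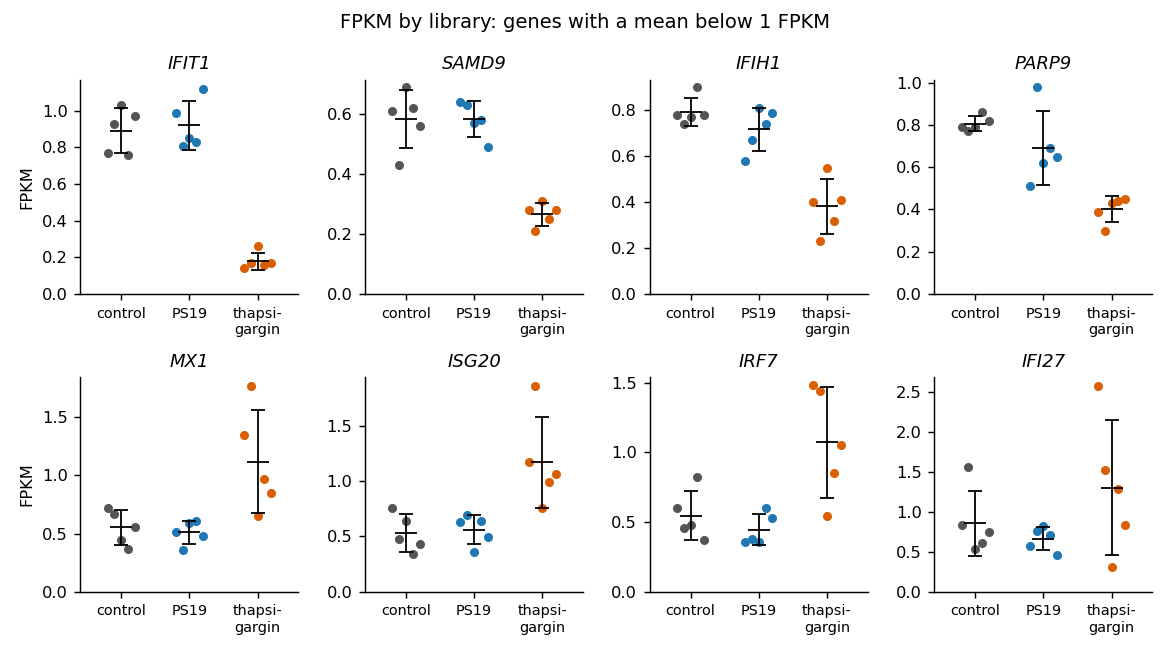
FPKM of 8 genes with a mean below 1 FPKM, 1 point for each library, with the mean and SD of each group of 5 as bars. IFIT1, SAMD9, IFIH1 and PARP9 (top) are lower in every thapsigargin library than in any control library, whereas MX1, ISG20, IRF7 and IFI27 (bottom) spread widely with thapsigargin and overlap with control.

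The third comparison set thapsigargin against PS19 cells. It shares the thapsigargin libraries with the second and is given beside it as its own values. Of the 19 genes 4 rose and 6 fell, while 68.0% of all genes passed, 25.8% higher and 42.2% lower, and the median log2 fold changes were 0.051 for the 19 and -0.11 for all genes. ISG15 was higher by 0.93 (SE 0.19, adjusted p = 0.001046) and IRF9 by 0.43 (SE 0.10, adjusted p = 0.002684) on the log2 scale. ISG15 overlapped here, since PS19 library 5 (5.64 FPKM) exceeded thapsigargin library 3 (5.57 FPKM). TRIM25 (-0.91, adjusted p = 2.51e-05), B2M (-0.66, 0.0009636), HERC5 (-0.65, 0.001768) and TRIM21 (-0.52, 0.0006564) were lower with no overlap, beside 43.0% of all genes tested without overlap. HLA-B (-0.33, adjusted p = 0.03133; 0.1019 with median-ratio scaling), TAP1 (-0.22, 0.0395; 0.2467 with median-ratio scaling and 0.8874 with quantile normalization), DDX58 (0.26, 0.06526) and IRF3 (0.23, 0.09348) passed with overlapping groups. IRF3 did not pass there without any one of the PS19 libraries or of thapsigargin libraries 1, 2, 4 or 5, nor DDX58 without PS19 library 1, 3 or 5 or thapsigargin library 3 or 4. In the comparison without a filter 50.3% of all genes passed, 19.4% higher and 31.0% lower, and 3 of the 22 low genes rose and 7 fell.

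The thapsigargin libraries differed in how far they moved. Across the tested 19, the median deviation of a library from the mean of control libraries was -0.123 in thapsigargin library 2 and 0.043 in library 1 on the log2 scale, and -0.07 to 0.096 in control libraries. Across all tested genes it was -0.217 in thapsigargin library 2, -0.138 in library 1 and -0.025 to 0.031 in control libraries. Libraries 3 and 5 had the least change in ISG15, HERC5, B2M and HLA-B and the highest HSPA5, 1171.28 and 1186.91 FPKM, against 722.11 to 894.25 FPKM in libraries 1, 2 and 4. They also had the lowest FPKM sums of the group, 551499 and 580404. The part of these differences between libraries in the results was not tested. Leaving out thapsigargin library 3 raised the number of changed genes from 10 to 13, with 7 higher and 6 lower. Calls over all 11753 genes rose as well, from 3058 to 3251 higher and from 5100 to 5472 lower.

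How the libraries are scaled moved the balance of the calls. The median log2 fold change of all genes, -0.13 as deposited, was -0.28 after rescaling to TPM, -0.0022 with median-ratio scaling and -0.019 after quantile normalization. Calls over all genes were 3058 higher and 5100 lower as deposited, 2040 and 6422 with TPM, 4014 and 3924 with median-ratio scaling and 3716 and 4132 with quantile normalization. Among the 19 genes they were 4 and 6, 2 and 9, 7 and 4, and 6 and 6 in the same order. ISG15, IRF9, TRIM25, TRIM21, B2M and HERC5 kept their direction and their call under each of these scalings. Besides the losses given above for HLA-B, DDX58 and TAP1, IRF3 did not pass with TPM (adjusted p = 0.2394) or quantile normalization (0.1264).

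The other genes of the pathway were read from lists outside the 42. Of interferon ligands, IFNE had a mean of 0.1253 FPKM, IFNL1 and IFNL3 did not exceed 0.07 FPKM in any library and IFNL2 was listed at 0. IFNA1, IFNA2, IFNB1, IFNK and IFNG were looked up by symbol and not found among the 18338 genes with values, so no level can be given. All receptor genes were present. Of 6 ligand and receptor genes tested against control, 0 rose and 3 fell with thapsigargin, beside 43.4% of all genes lower: IFNGR2 (-0.39, SE 0.067, adjusted p = 0.0004502), IL10RB (-0.53, SE 0.10, adjusted p = 0.0009931) and IFNLR1 (-0.48, SE 0.093, adjusted p = 0.0009928). IFNAR1, a chain of the type I receptor, was 14.88 ± 1.209 FPKM in control and 13.27 ± 1.324 in thapsigargin cells (adjusted p = 0.1276). It passed as lower after rescaling to TPM (-0.32, adjusted p = 0.03045), with all 15 libraries in 1 fit (0.06871), and without control library 1 (0.08514) or thapsigargin library 3 (0.0495).

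Of 12 signalling genes tested, 7 fell with thapsigargin (58.33%, beside 43.4% of all genes) and 1 rose (8.333%, beside 26.0%), with a median log2 fold change of -0.41, beside -0.13 over all genes. JAK1 (-0.98, SE 0.14, adjusted p = 0.000124), PIAS1, an inhibitor of the pathway (-0.79, SE 0.097, adjusted p = 4.508e-05), and MAVS, the adaptor below RIG-I and MDA5 (-0.44, SE 0.069, adjusted p = 0.0002537) fell. The 1 that rose was TYK2, at 28.24 ± 2.595 FPKM in control and 44.75 ± 8.698 in thapsigargin cells (0.64, SE 0.12, adjusted p = 0.0008905), named after its values were seen. The paired kinases JAK1 and TYK2 thus had estimates of opposite sign.

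Of 21 other interferon-stimulated genes tested, 4 rose (19.05%, beside 26.0% of all genes) and 14 fell (66.67%, beside 43.4%), with a median of -0.27 beside -0.13. ZC3HAV1 (-0.91, SE 0.098, adjusted p = 1.736e-05), which encodes the zinc finger antiviral protein, and TDRD7 (-0.86, SE 0.12, adjusted p = 9.592e-05) fell. WARS, the cytosolic tryptophanyl-tRNA synthetase, rose (0.74, SE 0.089, adjusted p = 3.786e-05). It is known as a gene of amino acid supply as well as an interferon target.

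Among 15 other genes of antigen processing tested, 7 were higher (46.67%, beside 26.0% of all genes) and 2 lower (13.33%, beside 43.4%), with a median of 0.22, a balance that became 4 and 4 after rescaling to TPM. CALR (480.6 ± 35.44 to 1382.0 ± 60.04 FPKM, log2 fold change 1.53, adjusted p = 3.181e-08) and PDIA3 (109.9 ± 3.037 to 208.4 ± 34.99 FPKM, 0.90, adjusted p = 3.275e-05) are ER folding proteins that also assist class I assembly. PSMB10 (0.67, SE 0.14, adjusted p = 0.001702) and PSME2 (0.50, SE 0.10, adjusted p = 0.001349) belong to the immunoproteasome and its activator. CALR, PDIA3, PSMB10 and PSME2 rose under each of the 4 scalings. Between PS19 and control cells 0 genes of these 4 lists passed.

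**Figure D5:**
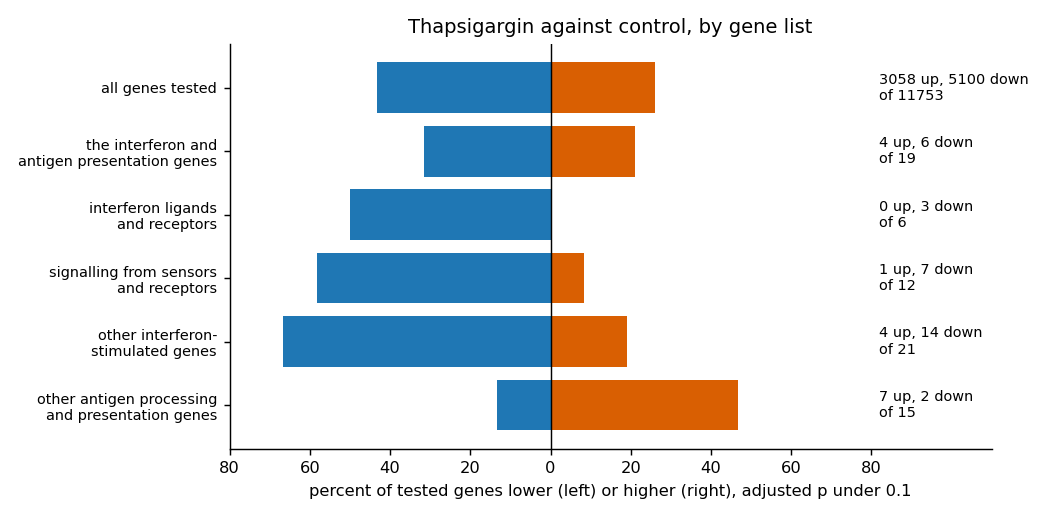
Percent of tested genes lower (left bars) or higher (right bars) in thapsigargin than in control cells (limma, adjusted p under 0.1), for all genes, the 42 genes described here (19 tested) and 4 lists of related genes. The other antigen processing genes have more higher than lower calls (7 and 2 of 15, but 4 and 4 after rescaling to TPM), and the signalling genes more lower than higher (7 and 1 of 12).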

How the data were processed

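RNA-Seq of 15 Biosensor libraries (5 control, 5 PS19, 5 thapsigargin) was used, grouped by the labels. The authors sequenced stranded mRNA libraries, filtered the reads (SOAPnuke), aligned these to GRCh38.p12 by HISAT2 2.0.4 and deposited FPKM values per gene from RSEM 1.2.12, with versions as in the submitters' processing notes and the study's methods. The authors tested counts with DESeq2 1.4.5, which FPKM do not allow. Rows with other text and no gene value (1101 in the control table, 693 in each of the others) were left out, and 0 sample columns went unused. The 3 tables were joined by gene ID. FPKM depends on the total of each library, so a few abundant genes can shift all others.

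Log2(FPKM + 0.5) was compared between 2 groups at a time (limma 3.58.1 on R 4.3.3, moderated two-sided test with a mean-variance trend) over the 11753 genes whose mean reached 1 FPKM. Benjamini-Hochberg adjustment ran over all genes of a fit, with a threshold of 0.1. The fit was tested on simulated data. Intervals are 95% intervals of the fitted differences. Low values were examined for steps of whole reads, but the smallest value above 0 had a median of 0.02 FPKM beside rounding at 0.01, so counts were not recovered.

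Every one of the 42 genes is accounted for. Values in each library are given for genes that passed and for 1 abundant gene of each role that did not, and up to 4 genes of smallest p for each related list, some of which are not reported here. Genes, lists and tests were chosen with earlier results of these data known. Alternatives covered the pseudocount, the filter, scaling between libraries, the libraries fitted, the replicate number as a block, limma's variance settings, the threshold and each library left out in turn, and, added after seeing the data, the scalings and left-out libraries without a filter.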

Additional observations from a re-analysis of the deposited data

Results flagged for a closer look

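In 3 of 90 groups of 5 libraries examined, 1 library lay further from its nearest neighbour than Dixon's 95% criterion allows, and chance alone marks about 1 in 20 groups. IFITM2 was 64.0 FPKM in control library 1, with the other control libraries at 46.75 to 51.55 FPKM. IFIH1 was 0.9 FPKM in control library 4, with the others at 0.74 to 0.78 FPKM. IFIT1 was 0.26 FPKM in thapsigargin library 3, with the others at 0.14 to 0.17 FPKM, and all 5 stayed below the lowest control library (0.76 FPKM).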

How the results depend on the processing

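Between PS19 and control cells 0 genes passed under every alternative run. Without a filter on low values, 21 genes passed between thapsigargin and control (7 higher, 14 lower) and 19 between thapsigargin and PS19 (6 higher, 13 lower), since 41 genes could then be fitted; with each of the other settings the totals in both directions together were within 1.5 times those reported, while higher calls alone against control went from 4 to 2 with TPM and to 7 with median-ratio scaling. Leaving out 1 library gave 8 to 13 changed genes against control, 8 to 12 against PS19 and 0 between PS19 and control. Over all 11753 genes these fits gave 2759 to 3251 higher and 4684 to 5472 lower against control. Against PS19 they gave 2788 to 3320 higher and 4629 to 5448 lower. At a threshold of 0.05, 8 genes passed in each thapsigargin comparison. Of all genes, 2692 were higher and 4589 lower at that threshold against control, and 2698 and 4491 against PS19. Quantile normalization reversed TAP1 against control (0.036) and turned HLA-C against PS19 to -0.16 (adjusted p = 0.07778); the cause was not tested. ISG15, IRF9, HERC5, TRIM21, TRIM25 and B2M kept their calls and direction under all 22 alternatives of both thapsigargin comparisons. Fits without a filter under other scalings or without 1 library, chosen after seeing the data, reversed no gene below 1 FPKM. With the replicate number as a block, 12 genes changed against control (6 higher, 6 lower), 11 against PS19 (5 higher, 6 lower) and 0 between PS19 and control. Over all 11753 genes the block gave 3237 higher and 5345 lower against control, and 2964 and 4890 against PS19. Same-numbered libraries did not all deviate together (correlations of -0.209 to 0.325 for PS19 and control, -0.128 to 0.609 for thapsigargin and control and -0.059 to 0.230 for thapsigargin and PS19). Not every library correlated best with its own number, so the numbers were not taken as pairs. The FPKM values hold no counts, which limits what can be said of genes near 0 FPKM.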
